A study of Mus musculus with 6 samples.

Results

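*Bmp2*, *Bmp4*, *Bmp5* and *Bmp7*, which encode secreted ligands of the bone morphogenetic protein (BMP) pathway, and *Id1*, *Id2*, *Id3*, *Id4*, *Smad6* and *Smad7*, which are transcribed in response to them, were examined in the pharyngeal region of mouse embryos that lack *Pax9*. These 10 genes, 4 ligands and 6 response genes, were taken by name from the 14647 genes in the deposited table. Earlier results of these data were known when the genes were chosen. All 10 passed the filter on low values. RNA was sequenced from embryos at E9.5, 3 of them *Pax9*-null and 3 wild-type, stage-matched by somite counting, on a C57Bl/6J background and of both sexes, and each library came from 1 embryo. The null allele is carried in every cell of the embryo and no other allele or treatment was used. The tissue was cut at the border of the first and second arches and at the base of the heart, so a library is a mixture of epithelium, neural crest, mesoderm, vessels and blood. In such bulk tissue, fewer cells of a type and less RNA per cell cannot be told apart.

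BMP ligands are secreted dimers that assemble type I and type II receptors, which phosphorylate Smad1, Smad5 and Smad9. These Smads join Smad4, enter the nucleus and switch on target genes, of which the *Id* genes, for helix-loop-helix proteins that bind E proteins and keep them off DNA, are among the most direct. *Smad6* and *Smad7* are also targets, and they encode inhibitory Smads that damp the signal. In the pharyngeal arches BMP signals pass between the endoderm, the surface ectoderm, the neural crest mesenchyme and the neighbouring heart field, and they take part in the growth of the arches and the outflow tract. *Pax9* encodes a transcription factor of the pharyngeal endoderm.

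The labels were checked by *Pax9* itself, which had 37 to 43 reads in the *Pax9*-null and 99 to 123 in the wild-type libraries, with an adjusted *P* of 0.0155 by limma. Depth was similar but lower in every *Pax9*-null library than in any wild-type library. There were 11676946 to 11882865 reads on listed genes in the libraries of *Pax9*-null and 12117227 to 12705808 in those of wild-type embryos. Epithelial markers summed to between 82.7 and 102 RPKM (reads scaled to gene length and library size) in the *Pax9*-null libraries and between 83.9 and 99.6 in the wild-type libraries. Neural crest markers summed to between 108 and 116 and between 103 and 115 RPKM. Of these 6, *Twist1* was called higher (adjusted *P* of 0.0399 by limma) and *Sox10* lower (0.0828). None of the 6 epithelial markers was called. *Pax1*, a marker of the pharyngeal endoderm, was the lowest epithelial marker at a mean of 0.855 RPKM. It was lower in *Pax9*-null embryos without overlap, at 0.65 against 1.06 RPKM (adjusted *P* of 0.1009 by limma). The epithelial markers were divided, with 3 fold changes above and 3 below 1 and a median log2 fold change of 0.06. *Pax1* was the only 1 of them without overlap. A pair of wild-type libraries stood apart. In wild-type replicate 3, 6 cardiomyocyte markers summed to 34.0 RPKM, against 678 to 851 in the other 5 libraries, and neuron markers were highest at 140 RPKM. In wild-type replicate 1, neural tube markers were lowest at 20.9 RPKM and endothelial markers highest at 80.6. Endothelial markers did not overlap between genotypes, at 44.0 to 51.9 RPKM in *Pax9*-null and 56.0 to 80.6 in wild-type libraries, and 2 of the 6 were called lower. Primitive erythroid markers summed to between 2565 and 4741 RPKM against 2327 to 2416, with 2 of 5 called higher. Of all tested genes, 14.7% were called higher and 12% lower, and 20.1% were lower without overlap. Shorter and GC-poorer genes tended to have higher fold changes, with a Spearman's rho over genes, which do not count as replicates, of −0.41 for length and −0.44 for GC content. Each BMP gene is therefore also described after both trends were taken out of every library.

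None of the 10 BMP genes passed the test at the threshold of 0.1 on the adjusted *P*, the one the authors used, in a comparison in which 26.7% of the 13547 tested genes did, 14.7% as higher and 12% as lower in *Pax9*-null embryos. The response genes all had a fold change above 1, and the ligands were divided, with *Bmp5* and *Bmp2* above and *Bmp7* and *Bmp4* below 1. At an unadjusted *P* under 0.05 there were 3 of the 10, *Id1*, *Smad6* and *Bmp5*, all with the higher mean in *Pax9*-null embryos, beside 35.1% of all tested genes in either direction. The libraries of *Id1* and *Smad6* did not overlap between genotypes and were higher in *Pax9*-null embryos, which was true of 21.8% of all tested genes. No BMP gene was lower without overlap, against 20.1% of tested genes. With limma's voom model on the recovered reads, *Id1* and *Smad6* were called higher, at adjusted *P* values of 0.0956 and 0.0952, where 15.3% of tested genes were called higher. The median log2 fold change was 0.34 over the 10 genes, 0.19 over the ligands and 0.34 over the response genes, beside −0.0012 over all tested genes. The median of the response genes was 0.16 after quantile normalization or trend removal, and 0.19 without wild-type replicate 1.

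**Figure D1:**
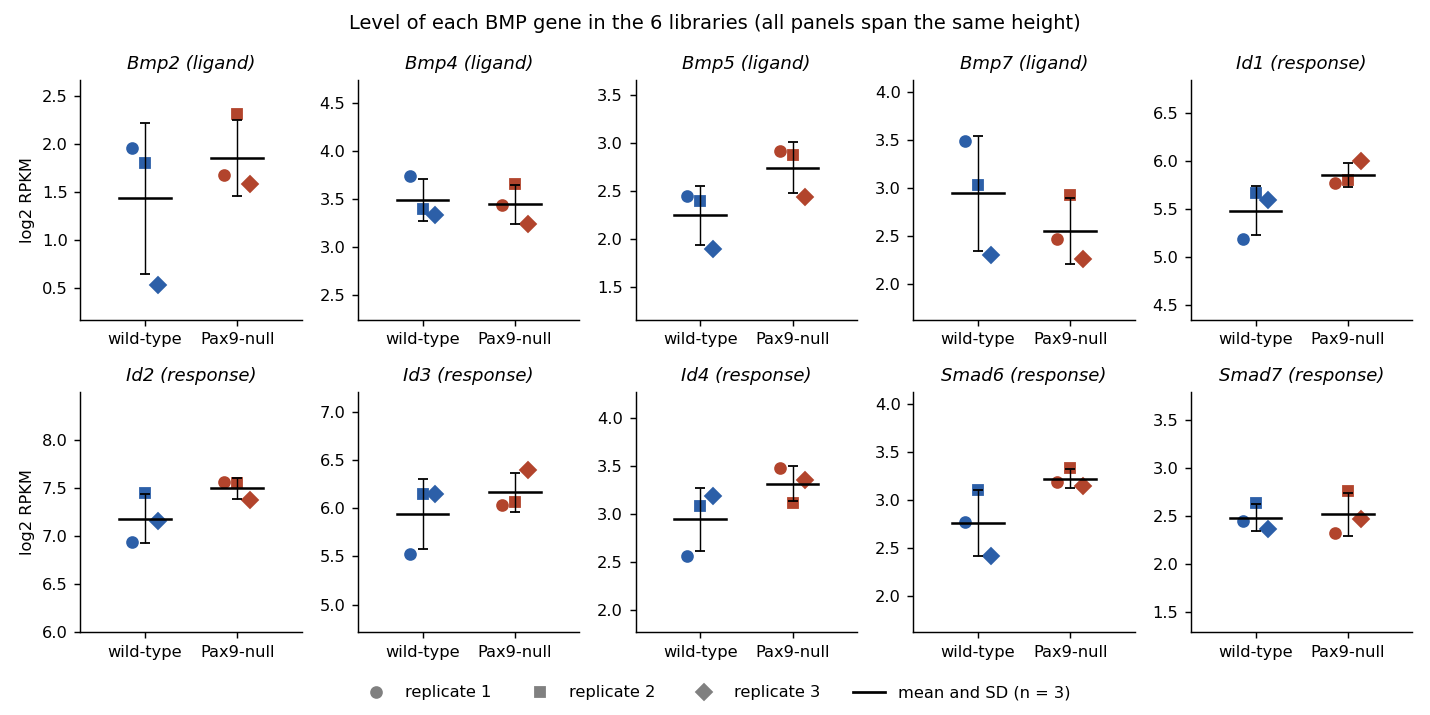
Level of each of the 10 BMP genes in the 6 libraries, in log2 RPKM, with wild-type libraries in blue and *Pax9*-null libraries in red, and the mean and SD of 3 libraries in black. Every panel spans the same height on the log2 scale. The genotypes are separate for *Id1* and *Smad6*, wild-type replicate 1 is lowest for all 4 *Id* genes, and wild-type replicate 3 is lowest for *Bmp2*, *Bmp5* and *Smad6*.

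In wild-type embryos the *Id* genes covered the top of the range. *Id2* had the highest level, at 7.18 ± 0.25 log2 RPKM (mean ± SD, *n* = 3), followed by *Id3* at 5.94 ± 0.36 and *Id1* at 5.48 ± 0.26. *Bmp4* was the most abundant ligand at 3.49 ± 0.22, above *Id4* at 2.94 ± 0.33, *Bmp7* at 2.94 ± 0.60, *Smad6* at 2.76 ± 0.34, *Smad7* at 2.48 ± 0.14, *Bmp5* at 2.25 ± 0.31 and *Bmp2* at 1.43 ± 0.79. The libraries of neighbours in this order did not overlap between *Id2* and *Id3*, between *Id1* and *Bmp4* and between *Bmp4* and *Id4*, and they overlapped between all other neighbours. As values per length, these levels place *Id2*, *Id3* and *Id1* among the most abundant of the tested genes, at percentiles of 97.9, 93.3 and 90.8, and the ligands between percentiles of 31.7 and 61.4.

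*Bmp4*, the ligand best known in the pharyngeal ectoderm and the outflow tract, lies at chr14:46383520-46390669 (GRCm38, minus strand). Its levels were 3.44, 3.66 and 3.25 log2 RPKM in *Pax9*-null replicates 1, 2 and 3 and 3.75, 3.40 and 3.34 in the wild-type replicates, from 247 to 378 reads. The libraries of both genotypes covered the same range. *Bmp4* had a log2 fold change of −0.05 (SE 0.15) with an adjusted *P* of 0.844 by limma. Its 95% interval ran from −0.39 to 0.30, so the 3 embryos per genotype leave room for a change in either direction within that interval. The fold change varied in sign between −0.15 and 0.08 as single libraries were left out, and it was −0.03 (adjusted *P* of 0.920) after trend removal.

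*Bmp2*, a ligand that patterns the heart cushions and the neighbouring mesoderm, lies at chr2:133552159-133562885 (plus strand) and was the lowest of the 10 genes. It read 1.68, 2.31 and 1.58 log2 RPKM in the *Pax9*-null replicates and 1.96, 1.81 and 0.53 in the wild-type replicates, from 64 to 202 reads. The genotypes overlapped, and wild-type replicate 3 lay well below the other 5 libraries. Its log2 fold change was 0.42 (SE 0.38, adjusted *P* of 0.459), and it was −0.03 without that library and 0.56 (adjusted *P* of 0.381) after trend removal. *Bmp2* had the widest range of the 10 genes over the libraries, at 1.78 log2 units.

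*Bmp5*, a ligand of the same subgroup as *Bmp7*, lies at chr9:75775364-75900310 (plus strand). Its levels were 2.92, 2.87 and 2.44 log2 RPKM in *Pax9*-null replicates and 2.45, 2.40 and 1.90 in wild-type replicates. *Pax9*-null replicate 3 lay within the wild-type range and the other *Pax9*-null replicates lay above it. The log2 fold change was 0.50 (SE 0.20, 95% interval 0.04 to 0.95), the largest of the 10 genes, with an unadjusted *P* of 0.0358 and an adjusted *P* of 0.118. It was 0.32 without wild-type replicate 3 and 0.22, with an adjusted *P* of 0.507, after the trends with gene length and GC content were removed.

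*Bmp7*, at chr2:172868012-172940321 (minus strand), was the ligand whose mean lay furthest below wild-type in *Pax9*-null embryos. It read 2.46, 2.92 and 2.26 log2 RPKM in the *Pax9*-null replicates and 3.49, 3.03 and 2.30 in the wild-type replicates. Wild-type replicate 3 lay among the *Pax9*-null libraries and the other wild-type replicates above them. The log2 fold change was −0.39 (SE 0.30, adjusted *P* of 0.379). Without wild-type replicate 3 it was −0.71 with an adjusted *P* of 0.0943, the only fit among the alternatives in which a BMP gene was called lower, and without wild-type replicate 1 it was −0.12. After trend removal it was −0.11 with an adjusted *P* of 0.833.

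Wild-type replicate 3, the library with few cardiomyocyte transcripts, thus had the lowest level of *Bmp2* and *Bmp5* of all 6 libraries and the lowest *Bmp7* of the wild-type libraries. *Bmp10*, a ligand of the heart muscle that is named here after its values were seen, had 1 read in that library and 120 to 350 in the others. The part of the cardiac tissue in these ligand levels was not tested. *Bmp4* and *Bmp5* each share exonic sequence with a gene on the opposite strand (*Gm15217* and *Gm26903*). As the counting did not use strand, reads in the shared stretches could not be assigned by strand to either gene.

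**Figure D2:**
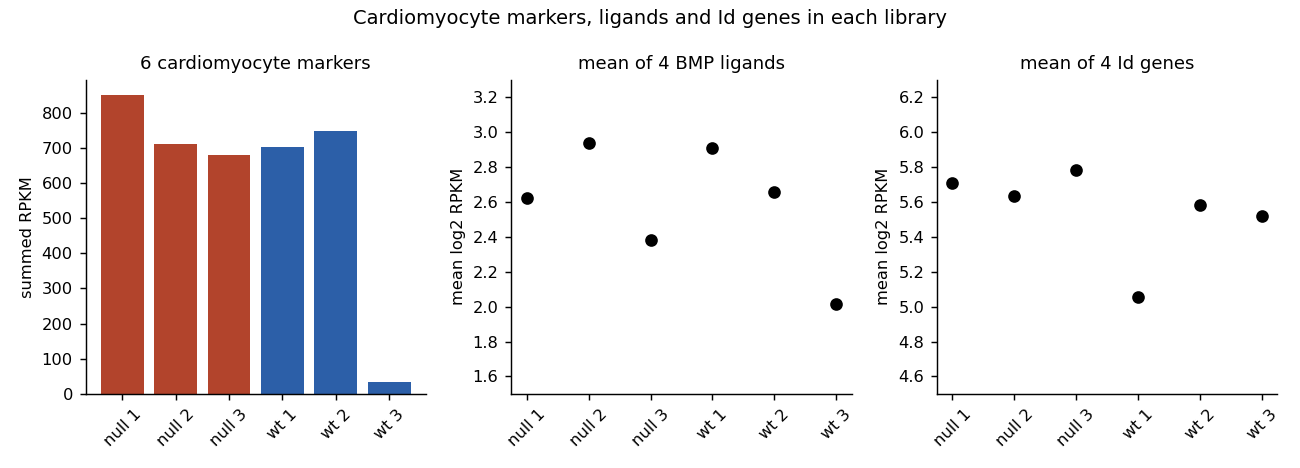
Summed RPKM of 6 cardiomyocyte markers (left, bars), mean log2 RPKM of the 4 ligands (centre) and mean log2 RPKM of the 4 *Id* genes (right) in each library, where null stands for *Pax9*-null, wt for wild-type and the number for the replicate. Wild-type replicate 3 is lowest for the cardiomyocyte markers and the ligands, and wild-type replicate 1 is lowest for the *Id* genes.

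*Id1*, a direct BMP target in many cell types, lies at chr2:152736251-152737410 (plus strand). Its levels were 5.77, 5.80 and 6.0 log2 RPKM in the *Pax9*-null replicates and 5.19, 5.66 and 5.60 in the wild-type replicates, from 537 to 871 reads. All *Pax9*-null libraries lay above all wild-type libraries, by 0.11 at the closest. The log2 fold change was 0.37 (SE 0.14, 95% interval 0.06 to 0.69), which is a fold of 1.30, with an unadjusted *P* of 0.0267 and an adjusted *P* of 0.1001, just above the threshold. The exact two-sided permutation test gave *P* = 0.1, the smallest that 3 libraries against 3 allow. *Id1* was called in 6 of the 17 alternatives. After trend removal *Id1* was left with a log2 fold change of 0.11, with an adjusted *P* of 0.484 and overlapping libraries.

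*Id2*, at chr12:25093799-25097140 (minus strand), had the most reads of the group, 1974 to 2762 per library. It read 7.55, 7.55 and 7.37 log2 RPKM in the *Pax9*-null replicates and 6.94, 7.44 and 7.15 in the wild-type replicates. Wild-type replicate 2 lay within the *Pax9*-null range. Its log2 fold change was 0.31 (SE 0.14, adjusted *P* of 0.152). Without wild-type replicate 2 it was 0.45 with an adjusted *P* of 0.0527, and after removal of the trends it was −0.25 (SE 0.11, adjusted *P* of 0.224), so the sign of the *Id2* difference turned with that step.

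*Id3*, at chr4:136143497-136145755 (plus strand), read 6.03, 6.07 and 6.40 log2 RPKM in the *Pax9*-null replicates and 5.53, 6.15 and 6.15 in the wild-type replicates. The genotypes overlapped, and only wild-type replicate 1 lay below all *Pax9*-null libraries. For *Id3* the log2 fold change was 0.22 (SE 0.19, adjusted *P* of 0.417), and it was 0.01 without wild-type replicate 1. It was 0.21 after removal of the trends.

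*Id4*, the lowest of the *Id* genes, at chr13:48261228-48266026 (plus strand), read 3.47, 3.11 and 3.36 log2 RPKM in the *Pax9*-null replicates and 2.56, 3.08 and 3.18 in the wild-type replicates. Wild-type replicate 3 lay within the *Pax9*-null range and wild-type replicate 1 was far below all other libraries. *Id4* had a log2 fold change of 0.37 (SE 0.18, adjusted *P* of 0.179). It was 0.18 without wild-type replicate 1 and −0.19 (adjusted *P* of 0.403) after removal of the trends. *Id4* shares exonic sequence with *A330033J07Rik* and *Gm49291* on the opposite strand, and reads in the shared stretches could not be assigned by strand.

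The *Id* genes followed each other over the libraries. When each gene was centred on its own mean, the root mean square difference over the 6 libraries was 0.11 log2 units between *Id1* and *Id3*, the closest pair among the 10 genes. *Id4* and *Id2* were also nearest to *Id1*, at 0.14 and 0.16. The mean over the 4 *Id* genes was 5.71, 5.63 and 5.78 log2 RPKM in the *Pax9*-null replicates and 5.05, 5.58 and 5.52 in the wild-type replicates. The *Pax9*-null libraries lay above the wild-type libraries, by 0.05 between the closest libraries, and wild-type replicate 1 lay furthest below. This separation was lost after trend removal, when the *Id* means were 5.53, 5.55 and 5.52 in the *Pax9*-null replicates and 5.34, 5.63 and 5.72 in the wild-type replicates, a difference of −0.03 between the group means. Wild-type replicate 1 was still the lowest, and the other wild-type replicates lay above all *Pax9*-null libraries. Wild-type replicate 1 was also the library with the fewest neural tube and the most endothelial transcripts, and the part of this in the *Id* levels was not tested.

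The *Id* genes are short. Their exons sum to 1160 to 1791 bp, at percentiles of 8.77 to 17.3 of the tested genes, while the other BMP genes lie at percentiles of 24.1 to 59.2. Their GC content is divided, with *Id3* and *Id1* at percentiles of 83.7 and 77.8 and *Id2* and *Id4* at 28.6 and 12.4. The 2 GC-poor genes were those whose fold change changed sign when the trends with length and GC content were removed, and their log2 fold changes moved from 0.31 to −0.25 and from 0.37 to −0.19. *Id1* and *Id3* kept their sign. Quantile normalization, which gives all libraries 1 distribution, also took the abundant *Id* genes closer to 0, with log2 fold changes of 0.25 for *Id1*, 0.03 for *Id2* and 0.07 for *Id3*, and left *Id4* at 0.39.

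*Smad6*, the inhibitory Smad most selective for BMP signals, lies at chr9:63953076-64022059 (minus strand). It read 3.18, 3.33 and 3.14 log2 RPKM in the *Pax9*-null replicates and 2.77, 3.10 and 2.41 in the wild-type replicates, from 214 to 370 reads. All *Pax9*-null libraries lay above all wild-type libraries, by 0.04 at the closest. The log2 fold change was 0.46 (SE 0.17, 95% interval 0.06 to 0.86), a fold of 1.37, with an unadjusted *P* of 0.0306, an adjusted *P* of 0.108 and an exact permutation *P* of 0.1. It was called in 5 of the 17 alternatives, and it was 0.28 (adjusted *P* of 0.223) without wild-type replicate 3, the library with few cardiomyocyte transcripts, in which *Smad6* was lowest.

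The exons of *Smad6* are GC-rich, at a percentile of 97.3, and trend removal raised its log2 fold change to 0.78 (SE 0.17) with an adjusted *P* of 0.0753. It was then the only BMP gene called, in a fit in which 2.2% of the 13524 genes with a known length and GC content were called higher. The levels from that fit were 3.47, 3.43 and 3.23 log2 RPKM in the *Pax9*-null replicates and 2.67, 2.91 and 2.23 in the wild-type replicates. They did not overlap between genotypes, and the share of all genes without overlap was not counted in that fit. With 1 library left out as well, the log2 fold change lay between 0.59 and 0.93 and the adjusted *P* between 0.0493 and 0.228. The call was kept without wild-type replicate 2 or 3 and lost in the other 4 fits, at adjusted *P* values of 0.228, 0.142 and 0.224 without *Pax9*-null replicates 1, 2 and 3 and of 0.115 without wild-type replicate 1. In the same order, these 4 fits called 77, 152, 0 and 388 of all 13524 genes, against 700 with all libraries. The fits without wild-type replicates 2 and 3 called 1104 and 349. *Pax9* itself was called in 4 of the 6 fits, so lost calls are not particular to *Smad6*.

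*Smad7*, which inhibits both the BMP and the TGFβ branch, lies at chr18:75367529-75395935 (plus strand) and varied least of the 10 genes, over 0.45 log2 units. It read 2.31, 2.76 and 2.46 log2 RPKM in the *Pax9*-null replicates and 2.45, 2.63 and 2.36 in the wild-type replicates. The genotypes overlapped throughout. *Smad7* had a log2 fold change of 0.03 (SE 0.15, 95% interval −0.31 to 0.38) with an adjusted *P* of 0.893. After removal of the trends it was 0.37 (adjusted *P* of 0.145 by limma), with all *Pax9*-null libraries above all wild-type libraries. How many of all genes were separated in this way after that step was not counted.

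**Figure D3:**
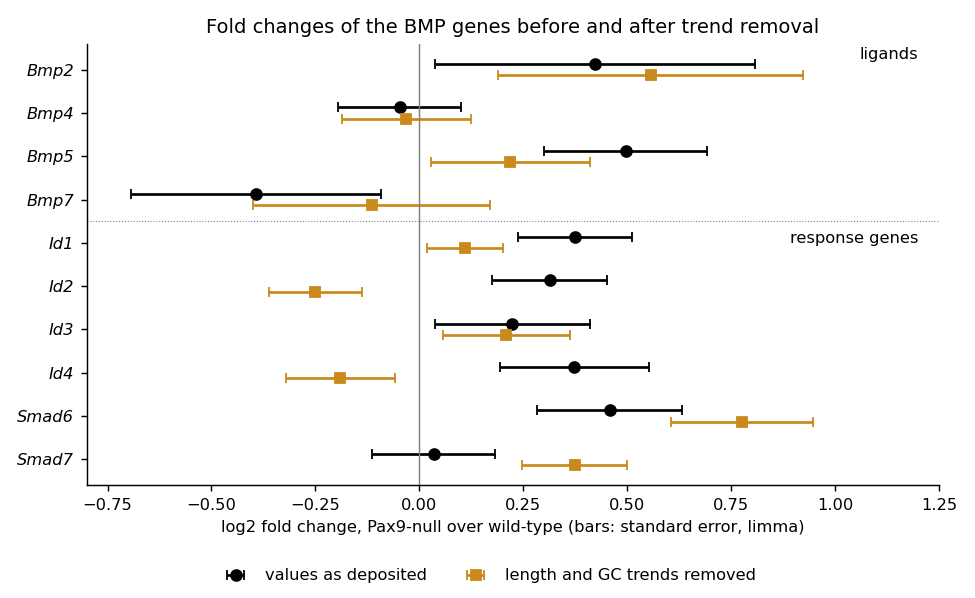
Log2 fold change (*Pax9*-null over wild-type) and standard error by limma of the 10 BMP genes, on the values as deposited (black circles) and after the length and GC trends were taken out of each library (ochre squares). As deposited, all 6 response genes lie above 0, and after trend removal *Id2* and *Id4* lie below 0 while *Smad6* and *Smad7* lie further above it.

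The start-site regions of *Smad6* and *Id4* are shown because *Smad6* was the response gene called once the trends were removed and *Id4* one whose sign turned. They were read from RefSeq (GRCm38.p6), from 250 bases before the start to 10 bases after it, on the strand of the gene. The RefSeq start of *Id4* lies upstream of the gene boundary given above. Regions of 6 of the 10 genes were searched, and those of the other genes were not examined. Capitals mark the letters GGCGCC and its variant GGAGCC (GC-rich Smad-type sites) and GTCTAGAC (the palindromic Smad-binding element), searched on both strands without overlap between the motifs.
Smad6 chr9:64022050-64022309 minus strand: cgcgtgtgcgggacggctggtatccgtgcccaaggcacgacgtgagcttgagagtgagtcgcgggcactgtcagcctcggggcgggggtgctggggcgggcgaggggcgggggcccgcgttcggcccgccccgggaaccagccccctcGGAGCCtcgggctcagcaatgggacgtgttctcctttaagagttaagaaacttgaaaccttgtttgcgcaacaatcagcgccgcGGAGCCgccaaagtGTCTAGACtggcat
Id4 chr13:48260866-48261125 plus strand: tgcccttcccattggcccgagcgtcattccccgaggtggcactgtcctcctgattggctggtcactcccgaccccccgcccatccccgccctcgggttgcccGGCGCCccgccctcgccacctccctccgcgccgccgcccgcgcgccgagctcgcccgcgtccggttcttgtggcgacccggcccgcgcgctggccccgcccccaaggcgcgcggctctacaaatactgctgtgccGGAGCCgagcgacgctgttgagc

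The *Smad6* region held GTCTAGAC from base −4, across the start site, and GGAGCC from bases −102 and −18. Of 32851 mouse promoter regions of the same length, 0.177% held GTCTAGAC. Among the 6 BMP genes searched, *Smad6* was the only 1 with this match. The regions of *Id1*, *Bmp2*, *Bmp7* and *Smad7*, the other inhibitory Smad, were not searched. Whether the match is particular to *Smad6* among the BMP genes was therefore not tested. The *Id4* region held GGCGCC from base −148 and GGAGCC from base −13. GGCGCC was found in 9.96% of all regions and in 2 of the 6 BMP genes (*Id2* and *Id4*), and GGAGCC in 26.8% of all regions and in 5 of the 6 (*Bmp4*, *Id2*, *Id3*, *Id4* and *Smad6*). The *Bmp5* region held none of the 3. These matches are letters in a window, and binding was not measured.

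Set side by side in each library, ligands and response genes did not follow the same order. The mean level of the 4 ligands was 2.63, 2.94 and 2.38 log2 RPKM in the *Pax9*-null replicates and 2.91, 2.66 and 2.02 in the wild-type replicates. The mean level of the 6 response genes was 4.72, 4.77 and 4.79 in the *Pax9*-null replicates and 4.24, 4.68 and 4.48 in the wild-type replicates. The ligand means overlapped between genotypes, at 2.65 ± 0.28 against 2.53 ± 0.46 (SD, *n* = 3), and the response means did not, at 4.76 ± 0.03 against 4.46 ± 0.22. After trend removal the response means overlapped as well, at 4.70 ± 0.05 against 4.53 ± 0.14, as *Pax9*-null replicate 3 (4.646) lay just below wild-type replicate 2 (4.649). Wild-type replicate 1 had the second-highest ligand mean and the lowest response mean, so that its response level exceeded its ligand level by 1.33 log2 units, the least of the 6 libraries. Wild-type replicate 3 had the lowest ligand mean and the largest such difference, at 2.46. The difference between response and ligand means was 2.11 ± 0.29 in *Pax9*-null and 1.94 ± 0.57 in wild-type embryos, and overlapped. *Smad6* followed *Bmp5* more closely than it followed any *Id* gene, at a root mean square difference of 0.17, and *Smad7* was nearest to *Bmp4*, at 0.19.

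**Figure D4:**
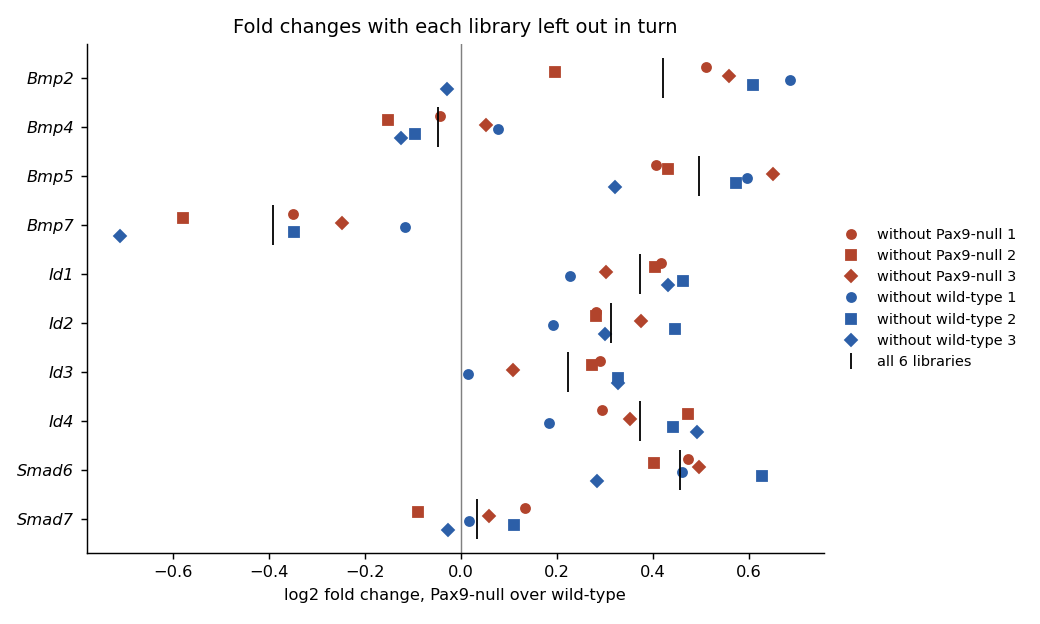
Log2 fold change (*Pax9*-null over wild-type) of each BMP gene in the fit to all 6 libraries (black bars) and in 6 fits that each left out 1 library (symbols, red for *Pax9*-null and blue for wild-type libraries). *Bmp2*, *Bmp4* and *Smad7* cross 0, *Bmp7* runs from −0.71 to −0.12, and the *Id* genes are lowest without wild-type replicate 1.

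The fold changes of single genes moved with the library left out. They stayed above 0 in all 6 such fits for *Bmp5* (0.32 to 0.65), *Id1* (0.23 to 0.46), *Id2* (0.19 to 0.45), *Id3* (0.01 to 0.33), *Id4* (0.18 to 0.49) and *Smad6* (0.28 to 0.63). They stayed below 0 for *Bmp7*, and changed sign for *Bmp2* (−0.03 to 0.69), *Bmp4* and *Smad7* (−0.09 to 0.13). All 4 *Id* genes had their smallest fold change without wild-type replicate 1, the library in which each of them was lowest. *Id1*, *Id2* and *Smad6* were called without wild-type replicate 2, at adjusted *P* values of 0.0756, 0.0527 and 0.0457. Calls were common in that fit, which called 3578 of all 13547 genes in either direction. These BMP genes were called in no other fit that left out 1 library of the values as deposited.

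The rest of the pathway was described by a list of 51 genes, of which 45 were in the table and 43 passed the filter, while the remaining 6 are not analysed here. Of the 43 genes, 1 was called higher and 7 lower, beside 14.7% and 12% of all tested genes, with a median log2 fold change of −0.08. Without overlap between genotypes, 4 of the 43 were higher and 9 lower, beside 21.8% and 20.1% of all tested genes. The number called fell from 8 to 0 without *Pax9*-null replicate 1 or 3 and to 3 without wild-type replicate 1 or 3, and it stood at 7 without *Pax9*-null replicate 2 and at 8 without wild-type replicate 2. Over all 13547 tested genes, 3611 calls became 301, 3056 and 175 without *Pax9*-null replicates 1, 2 and 3. Without wild-type replicates 1, 2 and 3 they became 1799, 3578 and 2141. No gene was called among the 3 other ligands tested (−0.48 to 1.90, where the upper value is *Bmp10* with an SE of 1.82), the 4 signal-transducing Smads (−0.48 to 0.12), 5 other response genes (−0.42 to 0.21) or the 3 E proteins to which Id proteins bind (−0.29 to −0.19).

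The receptors held most of the lower genes, with 4 of 10 called lower, none called higher and a range from −0.72 to 0.21. Of all tested genes, 12% were called lower. *Eng*, a co-receptor of the endothelium, read 1.60, 1.98 and 1.61 log2 RPKM in the *Pax9*-null and 2.84, 2.40 and 2.09 in the wild-type replicates, a log2 fold change of −0.72 (SE 0.21, adjusted *P* of 0.0641). *Acvrl1*, the type I receptor of endothelial cells, had −0.46 (0.0767). *Rgma*, a BMP co-receptor best known in axon guidance, had −0.64 (0.0808), and *Acvr2b*, a type II receptor shared with activins, −0.39 (0.0818). The libraries of all 4 were lower in *Pax9*-null embryos without overlap, as were those of 20.1% of all tested genes. These calls were held in 1 to 3 of the 6 fits without 1 library, and none was held after trend removal, where the log2 fold changes lay between −0.40 and −0.06. The summed endothelial markers moved the same way as *Eng* and *Acvrl1*, and their part was not tested.

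Among 12 secreted antagonists and modulators, *Nog* was called higher and *Bmp1* lower. *Nog* encodes noggin, which binds BMP ligands and keeps them from their receptors. It lies at chr11:89300638-89302332 (minus strand) and read 2.09, 2.10 and 2.23 log2 RPKM in the *Pax9*-null and 1.26, 1.62 and 0.78 in the wild-type replicates, from 36 to 93 reads. All *Pax9*-null libraries were above all wild-type libraries, with a log2 fold change of 0.92 (SE 0.22, adjusted *P* of 0.0438), or 4.41 against 2.40 RPKM. It was 0.88 with an adjusted *P* of 0.0747 after removal of the trends. *Nog* was called in 4 of 6 fits without 1 library, the exceptions being those without *Pax9*-null replicate 1 (0.166) or 3 (0.131).

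*Bmp1* encodes no BMP ligand but a metalloprotease that cleaves procollagens and the antagonist chordin, and lies at chr14:70474558-70520234 (minus strand). It read 2.01, 2.61 and 2.50 log2 RPKM in the *Pax9*-null and 3.57, 3.10 and 3.28 in the wild-type replicates, from 175 to 565 reads. The libraries did not overlap, and the log2 fold change was −0.94 (SE 0.19, adjusted *P* of 0.0352), a level of 52.0% of wild-type. It was −0.66 with an adjusted *P* of 0.0871 after removal of the trends. *Bmp1* was also called in 4 of 6 fits without 1 library, and not without *Pax9*-null replicate 1 (0.114) or 3 (0.124). *Nog* and *Bmp1* were the 2 of the 43 tested genes of the list that stayed called after removal of the trends. That fit called 700 of all 13524 genes. With 1 library left out as well, *Nog* was called in 2 of 6 fits, without wild-type replicate 2 (0.0534) or 3 (0.0792), and *Bmp1* in 1, without wild-type replicate 2 (0.0775). In the other fits the adjusted *P* reached 0.248 for *Nog* and 0.253 for *Bmp1*. Over all genes, the 6 fits called 0 to 152 without a *Pax9*-null library and 349 to 1104 without a wild-type library.

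Of 6 intracellular and membrane regulators, *Smurf1*, a ubiquitin ligase that targets BMP Smads for degradation, and *Ski*, a co-repressor of Smad complexes, were called lower. Their log2 fold changes were −0.51 (adjusted *P* of 0.0618) and −0.35 (0.0823), without overlap between genotypes. After removal of the trends they were −0.15 and −0.07, with adjusted *P* values of 0.432 and 0.670, and were not called. *Smurf1* was called in 2 and *Ski* in 1 of the 6 fits without 1 library.

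**Figure D5:**
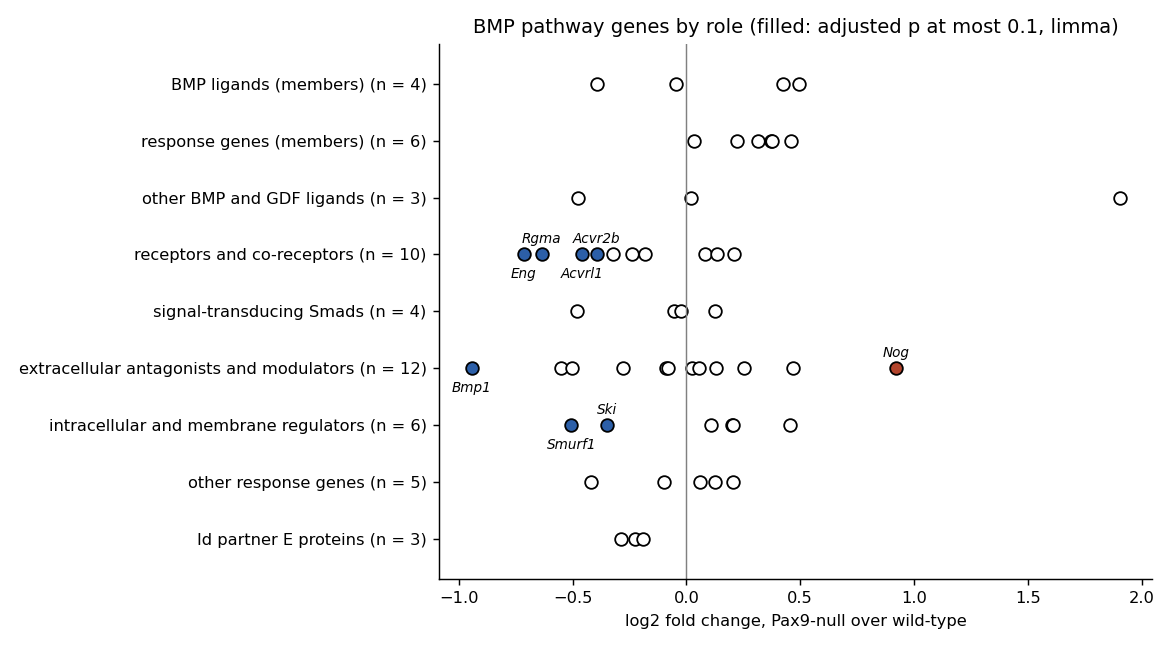
Log2 fold change (*Pax9*-null over wild-type) of the tested BMP pathway genes by role, with the 10 BMP ligands and response genes in the upper rows and the rest of the pathway list below, and *n* the number of tested genes. Filled symbols passed an adjusted *P* of 0.1 by limma. *Nog* is the filled symbol above 0, the 7 filled symbols below 0 are *Bmp1*, *Eng*, *Rgma*, *Acvrl1*, *Acvr2b*, *Smurf1* and *Ski*, and the open symbols of the upper rows show that no ligand or response gene passed.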

How the data were processed

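Total RNA of the dissected pharyngeal tissue of 6 embryos, 3 of each genotype, was sequenced, 1 embryo per library. The study's methods describe whole tissue and first-strand specific TruSeq libraries, whereas the sample labels name sorted cells and Smart-seq2, and the former were followed. The authors trimmed reads (Trimmomatic 0.32), aligned them to GRCm38 (STAR 2.5.1a per the submitters' processing notes), sub-sampled the libraries, kept unique, non-redundant reads and counted them on genes (featureCounts 1.5.1, default settings, which ignore strand). The deposited values are log2 RPKM, from −7.15 to 11.02, with a prior of 0.5 reads that was worked out from the values. RPKM divides by gene length, so levels can be compared between genes. Whole reads were recovered for all 14647 genes, within 0.02 of a read, of which 81.3% of the values were whole at the GENCODE M21 gene length and the others after a search of lengths.

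Genotypes were taken from the labels. Differential expression was tested two-sided with limma 3.58.1 (R 4.3.3, eBayes with a trend) on the deposited log2 values of the 13547 genes whose mean reached 0.5 RPKM, with Benjamini-Hochberg adjustment over all of them and a threshold of 0.1. Single genes were also tested by an exact permutation test, which cannot go below *P* = 0.1 with 3 against 3. The limma *P* values set the difference between genotypes against the spread between embryos of the same genotype. Length and GC trends were removed with natural splines (5 degrees of freedom each) on the deviation of each library from the gene mean, a step planned from earlier results. The fit was tested on simulated data. Other pseudocounts, filters, scalings, variance models, a replicate block, voom and leaving out each library were alternatives, and trend removal with a library left out was added after seeing the data. The 10 genes, the pathway list and the marker lists were chosen with earlier results of these data known. Named pathway genes were, per role, up to 4 called genes with the largest fold change, and only the range of a role without calls. Deviations from the group means of libraries with the same replicate number correlated at −0.02, −0.17 and 0.26, so the numbers were not taken to pair embryos.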

Additional observations from a re-analysis of the deposited data

How the results depend on the processing

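No fold change of a BMP gene that was called under any alternative had the opposite sign on the deposited values. The number of BMP genes called higher, 0 on the deposited values, was 1 with a pseudocount of 0.1 or 1 (*Id1*), 2 with a filter of at least 5 RPKM, with libraries centred on their medians or with voom (*Id1* and *Smad6* each time), 1 with the replicate block (*Bmp5*, adjusted *P* of 0.0939 by limma) and 1 after trend removal (*Smad6*). With single libraries left out it lay between 0 and 3, and the number called lower between 0 and 1. *Bmp2* failed the filter of 5 RPKM and has no value there. The number of pathway genes called, 8 on the deposited values, was 5 with the filter of 5 RPKM, 4 with the replicate block, 2 after trend removal, 2 at a threshold of 0.05 and between 0 and 8 with single libraries left out. Over all genes, 3611 calls became 1377 with the replicate block, 700 after trend removal, 1335 at a threshold of 0.05 and 175 to 3578 with single libraries left out. The median log2 fold change of the response genes, 0.34, was 0.16 after quantile normalization, 0.16 after trend removal and between 0.19 and 0.44 with single libraries left out. The median of the ligands ran from −0.08 to 0.34 with single libraries left out. Depth limited *Bmp2* most among the 10 genes, with 64 reads in wild-type replicate 3.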
